A study of Mus musculus with 6 samples.

Results

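Glutathione S-transferases join glutathione, a small thiol peptide, to electrophiles such as drugs, quinones and the breakdown products of oxidised lipids, and several of them also reduce peroxides or disulfides. The cytosolic enzymes fall into classes named by Greek letters (alpha, mu, pi, omega, theta and others), the kappa enzyme sits in mitochondria and peroxisomes, and the membrane-bound enzymes, MGST, belong to an unrelated family called MAPEG. Many of these genes are known targets of the transcription factor NRF2 and of the aryl hydrocarbon receptor, which makes them common readouts of oxidative and chemical stress. The 9 genes described here are Gstm1 and Gstm5 (mu), Gstp1 (pi), Gsto1 (omega), Gstt2 (theta), Gstk1 (kappa), Gsta4 (alpha), and the microsomal genes Mgst2 and Mgst3. They were taken from a list of named genes, and every probe set that the platform annotation pairs with 1 of them and with no other gene was used. The array names 18193 genes in this way, on 34945 probe sets, of which 14 belong to the 9 genes.

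The samples were Ba/F3-N cells, a mouse bone marrow-derived line transformed with the oncogenic NRAS-G12D form of the RAS GTPase, which all 6 samples carried. Ba/F3, the parent, is a pro-B line that ordinarily depends on interleukin-3. In 3 samples the cells had been given 1 µM N-arachidonoyl dopamine (NADA), a conjugate of arachidonic acid and dopamine, and in 3 samples an equal volume of vehicle; both groups were collected after 12 hours. Each sample was hybridised to 1 Affymetrix Mouse Genome 430 2.0 array, and the comparison asks which transcripts of NRAS-driven cells differ after NADA. All samples are of 1 line, and no label says whether they came from separate cultures, so the p-values cover only array-to-array spread, in which technical spread cannot be told apart from that between cultures.

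Of the genes that mark the line, the interleukin-3 receptor genes Il3ra, Csf2rb and Csf2rb2, the leukocyte gene Ptprc and the B-lineage genes Cd79b and Igll1 were above the dim limit of 39.01, the median of the mean intensities of all probe sets, in both groups. With the values as deposited 5 of these 6 rose. For this and the marker counts below, 35.3% of all 10520 genes rose and 37.2% fell, each by its brightest tested probe set. On the log2 scale Csf2rb2 rose by 2.35, Csf2rb by 1.75, Ptprc by 0.68, Il3ra by 0.51 and Cd79b by 0.46. Igll1 was not called (0.19, adjusted p = 0.0839). Igll1 passed only on a probe set of the x type, which may bind other transcripts (mean intensity 46.9). Its plain probe set, at 24.6, was under the dim limit. The summed signal of the 15 line markers on the array was 14991 to 15107 in NADA and 6509 to 6756 in vehicle. The other early B-lineage genes of the list, Ebf1, Pax5, Rag1, Rag2, Vpreb1, Dntt, Il7r and Cd79a, and also Kit, were below it. Summed over 11 probe sets, the hepatocyte markers, from a tissue rich in these transferases, stood at 233 to 238 in NADA and 225 to 238 in vehicle, and only Ttr among 5 genes passed the limit. The summed signal of the myeloid markers was 714 to 737 in NADA and 426 to 447 in vehicle (Lyz2 and Adgre1 rose, of 3 tested), and that of the erythroid markers 312 to 334 and 194 to 197 (Klf1 and Epor rose, both of those tested). Bacterial poly-A RNAs spiked in as labelling controls averaged 8.72 ± 0.21 (log2 intensity, SD, n = 3) on the NADA arrays, against 8.14 ± 0.01 on the vehicle arrays. The log2 ratio of 3' to 5' signal of the actin gene Actb was 1.06 ± 0.05 and 0.67 ± 0.04. For Gapdh that ratio differed by less, at -0.07 ± 0.06 in NADA and -0.22 ± 0.03 in vehicle. The hybridization controls averaged 10.08 ± 0.05 in NADA and 9.93 ± 0.10 in vehicle, a difference of 0.15 beside the 0.58 of the poly-A RNAs. For each of these measures the groups were apart, with a two-sided exact permutation p of 0.1, below which 3 against 3 arrays cannot go. The part of these differences in the results below was not tested, except that scaling each array to its poly-A controls lowers every log2 fold change by 0.58 and moves the median of all tested probe sets from 0 to -0.57. With that scaling 1446 of all 22519 tested probe sets were called higher in NADA and 17031 lower. Fold changes are therefore relative to the bulk of transcripts. For the 9 transferase genes, results that turn under that scaling are named. For other genes the same shift applies where no scaled value is given, and any rise smaller than 0.58 turns below 0. Among the line markers this holds for Il3ra and Cd79b.

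With the values as deposited, most of the measurable transferase genes were higher in NADA, Gstm1 by far the most and Gstp1 in the opposite direction; scaled to the poly-A controls, only Gstm1 was still called higher. Gstm1 rose on all 4 of its probe sets, with log2 fold changes from 0.83 to 2.43. Gsta4, Mgst2, Mgst3 and Gsto1 rose by 0.20 to 0.62 on the log2 scale with the values as deposited, and under the poly-A scaling Mgst2, Mgst3 and Gsto1 lay below 0. Gstp1 fell by 0.49 on the log2 scale, and Gstt2 did not pass the test. Of the 14 probe sets 11 reached the dim limit, each of them in both groups, and 3 did not: those of Gstm5 and Gstk1 and 1 of the 2 of Mgst3. A transcript is called here at an adjusted p under 0.05, from limma's test over all 22519 probe sets above the limit with Benjamini-Hochberg adjustment. Of the 11 probe sets 9 rose and 1 fell, where 34.5% of all tested probe sets rose and 36.3% fell. The 9 genes were chosen with earlier results of these data known, so these shares describe the list and do not test it. The groups did not overlap on 10 of the 11, a property shared by 73.9% of all tested probe sets. The median log2 fold change of the 11 was 0.48, beside 0 over all tested probe sets, and 4 of the 11 come from 1 gene. Counted by the brightest probe set of each gene, 5 of 7 genes rose and 1 fell (median log2 fold change 0.34), where 35.3% of 10520 genes rose and 37.2% fell. These are bulk samples, so fewer cells with a transcript and less of it per cell cannot be told apart.

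**Figure D1:**
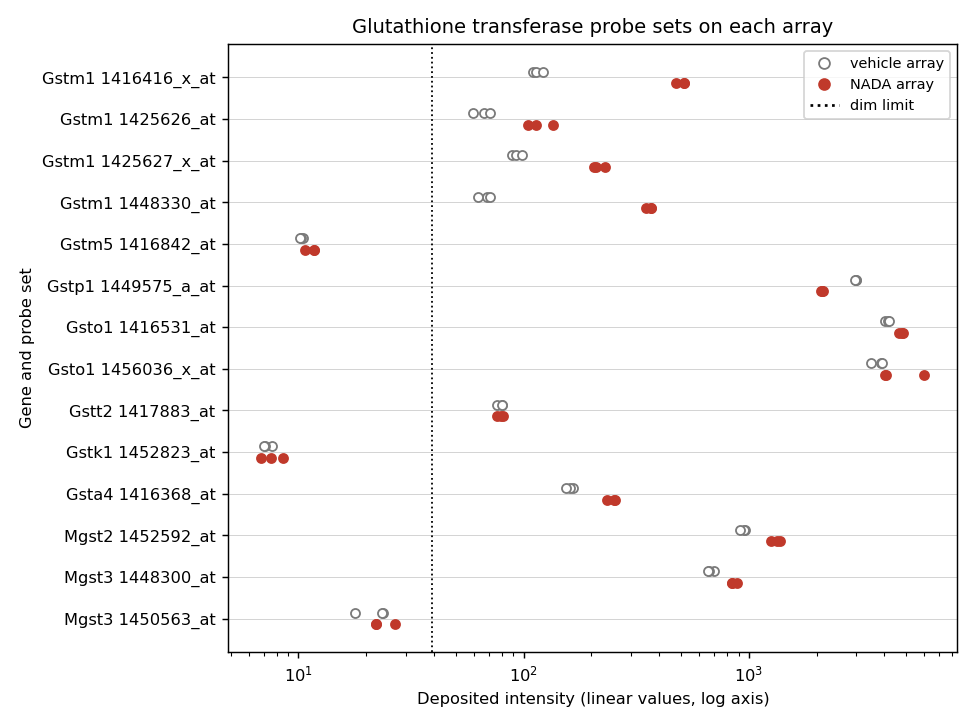
Deposited intensity (log axis) of each of the 14 probe sets on each array, with open grey circles for the 3 vehicle arrays, red points for the 3 NADA arrays and a dotted line at the dim limit of 39.01. The Gstm1 groups are the farthest apart, those of Gstp1 are reversed, and the probe sets of Gstm5, Gstk1 and 1 of Mgst3 lie left of the line; positions of different probe sets do not compare transcript amounts.

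Gstm1, the main mu-class enzyme of many mouse tissues, was the member with the largest change. On probe set 1448330_at its intensity was 366.4, 349.8 and 369 on the NADA arrays and 68.7, 70.7 and 62.6 on the vehicle arrays. Every NADA array was thus more than 4 times as bright as every vehicle array. The log2 fold change was 2.43 ± 0.06 (standard error, n = 3 per group), a 5.38-fold difference (adjusted p = 1.75e-12), and 99.8% of all tested probe sets had a lower one. Probe set 1416416_x_at gave 472.3, 517.1 and 513.3 in NADA against 110.3, 113.2 and 122.1 in vehicle. Its log2 fold change was 2.12 ± 0.06 (adjusted p = 3.14e-12), and 1.54 after scaling to the poly-A controls. Scaled in that way, 1448330_at stood at 1.85.

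The other probe sets of Gstm1 moved in the same direction by less. Probe set 1425627_x_at read 204.6, 210.4 and 228.7 in NADA and 88.5, 92.2 and 98.2 in vehicle, a log2 fold change of 1.21 ± 0.07 (adjusted p = 1.77e-09). Probe set 1425626_at read 135.2, 113.4 and 104.1 in NADA and 59.4, 66.9 and 70.8 in vehicle, a log2 fold change of 0.83 ± 0.10 (adjusted p = 4.13e-06). Both pairs of groups were separate, but the second lost its call after the poly-A scaling (0.26, adjusted p = 0.0699). The log2 ratio of 1448330_at to 1425626_at was 1.63 ± 0.19 (SD, n = 3) in NADA and 0.04 ± 0.20 in vehicle, so the fold changes of these probe sets differed by 1.59. In each of the 6 pairs of Gstm1 probe sets the ratio did not overlap between the groups, and the exact permutation test gave its smallest p, 0.1, for each (0.117 adjusted over the 7 pairs compared, which include that of Gsto1). The 6 pairs share probe sets, and with 3 arrays per group this test cannot reach 0.05. The estimates from the Gstm1 probe sets thus differ in size, by amounts that the test cannot call. Probe sets with an x in their name may bind transcripts of other genes as well, and the mu-class genes are close in sequence. The share of Gstm1 itself in 1416416_x_at and 1425627_x_at is therefore uncertain. The mean of both plain Gstm1 probe sets changed by 1.63 on the log2 scale (adjusted p = 1.99e-12).

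The bases before the Gstm1 start are shown because this gene moved most. They come from RefSeq (GRCm38.p6), whose promoter table lists 2 starts for Gstm1, and the window printed is that of the inner start, chr3:108017819-108018068 on the minus strand. Like all windows used here it holds the 250 bases before the start, which lies just past its last base.
Gstm1: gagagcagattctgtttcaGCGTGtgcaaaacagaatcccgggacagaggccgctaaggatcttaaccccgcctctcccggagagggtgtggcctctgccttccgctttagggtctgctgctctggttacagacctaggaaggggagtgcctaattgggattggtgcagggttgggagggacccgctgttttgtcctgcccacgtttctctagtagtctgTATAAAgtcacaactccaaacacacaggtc
Capitals mark matches to any of 5 motifs, searched on both strands: the core of the antioxidant response element bound by NRF2 with small MAF proteins, TGACNNNGC; the AP-1 site TGANTCA; a longer MAF-type site, made of TGC directly followed by that AP-1 site; the core site of the aryl hydrocarbon receptor and its partner ARNT, GCGTG; and the TATA box, TATAAA. The Gstm1 window holds a GCGTG at 231 bases and a TATAAA at 30 bases before the start, each counted to the first base of the match. The outer Gstm1 window overlaps this one and holds the same GCGTG. Over all 32851 promoter windows of that length in the table, 28.2% hold GCGTG and 12.4% hold TATAAA. These matches are descriptions of the letters and not shown to be sites.

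The 3 tested genes with the array profile closest to that of Gstm1 probe set 1448330_at were Pdzk1ip1, Ddx58 and Sqstm1. The measure was the Euclidean distance over the 6 arrays between log2 values centred on the vehicle mean, which was 0.162, 0.169 and 0.182, among 18964 probe sets of other named genes. Pdzk1ip1 encodes a small membrane protein, Ddx58 the RNA sensor RIG-I, and Sqstm1 the autophagy receptor p62. Their log2 fold changes were 2.43, 2.42 and 2.41. With 2 groups of 3 arrays this measure mostly ranks genes by the size of the difference between the groups.

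Gstm5, the other mu-class gene, was dim in both groups. Its probe set read 10.7, 11.8 and 11.7 in NADA and 10.4, 10.2 and 10.1 in vehicle, far below the limit of 39.01. The groups did not overlap, yet without the dim filter its log2 difference of 0.15 was not called (adjusted p = 0.262). Its promoter window is the only 1 of the 8 member windows with a match to the antioxidant core TGACNNNGC, at 42 bases before the start, a motif found in 10.2% of all windows. The 8 windows cover 7 of the 9 members, since Gstm1 has 2 of them. Gsta4 and Gstt2 have no window and were not searched.

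Gstp1, the pi-class enzyme, which is abundant in many cultured cells and also binds the stress kinase JNK, was the only member that fell. Its intensity was 2118, 2136 and 2089.8 in NADA and 2996, 2982 and 2955 in vehicle. The groups were far apart beside their spread, with a log2 fold change of -0.49 ± 0.03 and a 1.41-fold higher level in vehicle (adjusted p = 2.27e-09). It stood at -1.07 after scaling to the poly-A controls. Gstp1 and Gstm1 thus moved in opposite directions with the values as deposited and under that scaling. The probe set is of the a type, which can bind several transcripts of 1 gene. The Gstp1 window is chr19:4037913-4038162, minus strand, from the same RefSeq table, and is shown as the 1 member window with a MAF-type match:
Gstp1: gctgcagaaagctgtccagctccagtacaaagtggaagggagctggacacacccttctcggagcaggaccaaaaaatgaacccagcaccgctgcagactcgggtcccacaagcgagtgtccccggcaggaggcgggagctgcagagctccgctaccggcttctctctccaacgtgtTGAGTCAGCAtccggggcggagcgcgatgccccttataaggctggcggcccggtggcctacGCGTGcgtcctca
That match begins at 74 bases before the start, as TGAGTCAGCA on the strand printed, and includes an AP-1 match. The MAF-type motif is in 0.353% and the AP-1 motif in 6.75% of all windows. The second run of capitals is a GCGTG at 13 bases before the start. This motif is in 28.2% of all windows and in 5 of the 8 member windows, 2 of which are the overlapping Gstm1 windows that share it.

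Gsta4, the alpha-class enzyme that conjugates hydroxynonenal, a toxic product of lipid peroxidation, had an intensity of 255.3, 251.6 and 234.9 in NADA and 165, 161.3 and 154.9 in vehicle. All NADA arrays were brighter. The log2 fold change was 0.62 ± 0.06, or 1.54-fold (adjusted p = 2.86e-07), and after the poly-A scaling it was 0.05 and not called (adjusted p = 0.731).

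The microsomal members rose modestly with the values as deposited, and both turned below 0 under the poly-A scaling. Mgst2, which can make leukotriene C from its epoxide precursor as well as conjugate other substrates, read 1377, 1335 and 1250 in NADA and 964.2, 949.2 and 917.4 in vehicle. The groups were separate, and the log2 fold change was 0.48 ± 0.04 (adjusted p = 1.74e-07). Mgst3, which also reduces lipid hydroperoxides, read 886.6, 838.7 and 841.1 in NADA and 698.7, 665.7 and 658.1 in vehicle on probe set 1448300_at. Here too every NADA array was brighter, with a log2 fold change of 0.34 ± 0.04 (adjusted p = 5.08e-06). After the poly-A scaling Mgst2 stood at -0.09 (adjusted p = 0.485) and Mgst3 at -0.23 (adjusted p = 0.0692). The second Mgst3 probe set, 1450563_at, was dim, at 22, 22.1 and 26.8 in NADA and 23.7, 17.8 and 23.4 in vehicle, and its groups overlapped. The start listed for Mgst2 lies inside the gene as annotated, chr3:51636912-51682675, and not at its outer end. Before this start are an AP-1 match at 52 bases and a TATAAA at 32 bases. Of the 8 member windows 3 hold an AP-1 match, those of Gstm5 (at 176 bases), Gstp1 and Mgst2, beside 6.75% of all windows. Any part of these matches in the changes was not tested. The Mgst2 window, chr3:51660929-51661178 on the plus strand, is shown as 1 of those with an AP-1 match:
Mgst2: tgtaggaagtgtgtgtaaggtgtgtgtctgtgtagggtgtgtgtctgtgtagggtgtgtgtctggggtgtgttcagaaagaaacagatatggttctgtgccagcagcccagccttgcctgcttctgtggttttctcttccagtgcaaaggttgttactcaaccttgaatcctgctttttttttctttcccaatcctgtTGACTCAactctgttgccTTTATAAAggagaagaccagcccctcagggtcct
The run of 8 capitals near its end joins TATAAA to the same motif read on the opposite strand.

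Gsto1, the omega-class enzyme, which reduces dehydroascorbate and acts as a thiol transferase, had the smallest called change. Probe set 1416531_at read 4765, 4822 and 4632 in NADA and 4039, 4160.4 and 4203 in vehicle. The groups were separate by a small margin, with a log2 fold change of 0.20 ± 0.03, or 1.15-fold (adjusted p = 2.22e-05). Under the poly-A scaling the sign turned, to -0.38 (adjusted p = 0.0084). Probe set 1456036_x_at read 4011, 4044 and 6010.5 in NADA and 3493, 3875 and 3909.7 in vehicle, so that 1 array, NADA replicate 3, stood above the other two. Its log2 fold change of 0.29 ± 0.11 (adjusted p = 0.0352) became 0.10 without that array (adjusted p = 0.036). The call was lost without vehicle replicate 1 (0.24, adjusted p = 0.117) and without vehicle replicate 2 (0.32, adjusted p = 0.0538). It was also lost with median centring, with a floor of 50, with no intensity trend, with array weights, at a threshold of 0.01 and against a minimum of 1.5-fold.

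Gstt2, a theta-class enzyme, gave nearly the same signal in both groups. Its intensity was 80.6, 79.5 and 75.9 in NADA and 80.4, 76.2 and 80.2 in vehicle, and the groups overlapped. The log2 fold change was -0.01 ± 0.07 (adjusted p = 0.948), with a 95% interval from -0.15 to 0.14, and after the poly-A scaling it was -0.58 (adjusted p = 4.93e-05). Gstk1, the kappa enzyme, was the dimmest member on this array, at 7.56, 8.57 and 6.84 in NADA and 7.62, 7.1 and 7.01 in vehicle. No level can be given for it beyond being under the dim limit on every array.

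**Figure D2:**
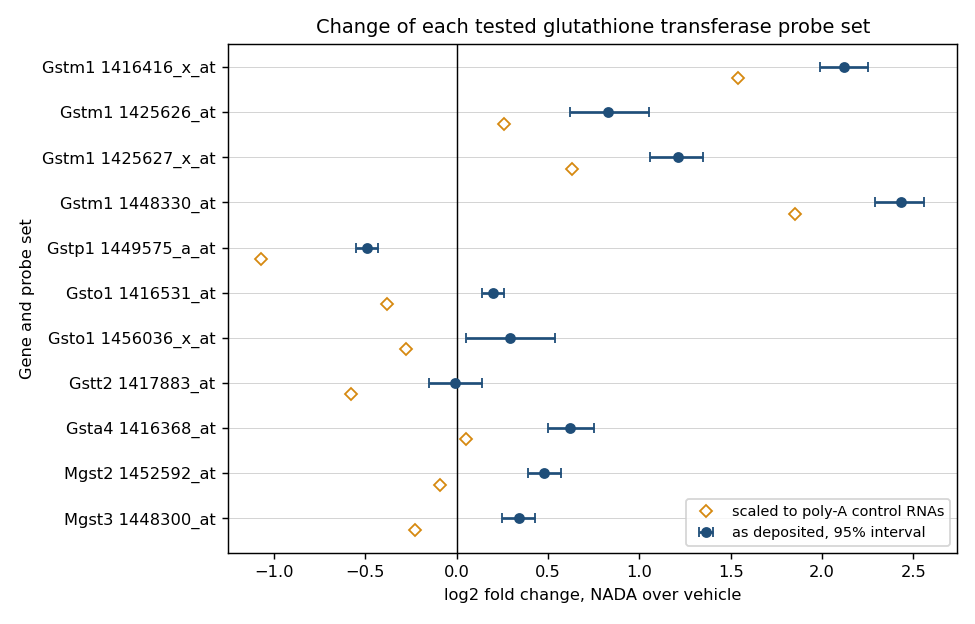
The log2 fold change, NADA over vehicle, of the 11 tested probe sets, with blue points and 95% intervals for the values as deposited and open diamonds after scaling to the poly-A control RNAs. As deposited, 9 points lie right of 0 with intervals that leave it out, while under the scaling the diamonds of Gsto1, Mgst2 and Mgst3 lie left of 0 and those of Gstm1 stay right of it.

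**Figure D3:**
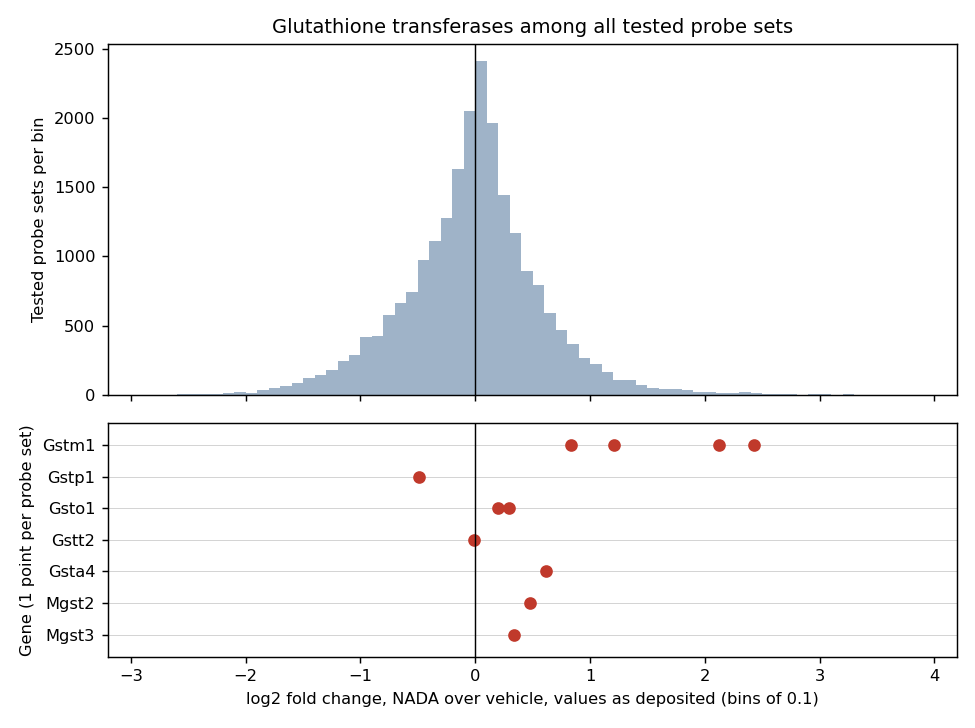
The upper panel counts the tested probe sets, 22519 in all, by log2 fold change, values as deposited, in bins of 0.1. Its axis leaves out 1 probe set between -4 and -3.9 and 1 between 4.3 and 4.4. The lower panel gives each tested transferase probe set as a point on its gene's line. Those of Gsto1, Mgst2, Mgst3, Gsta4, Gstt2 and Gstp1 lie within the bulk of the distribution, while 2 points of Gstm1, at 2.12 and 2.43, lie in its upper tail; the poly-A scaling would move every value by -0.58 and put Gsto1, Mgst2 and Mgst3 below 0.

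The remaining transferase genes moved both ways with the values as deposited. Of 16 such genes named on the array 8 passed the dim limit. Of these 4 rose and 3 fell, where 35.3% of all 10520 genes rose and 37.2% fell. Their log2 fold changes had a median of 0.08, beside 0.01 over all genes. After the poly-A scaling 1 rose and 5 fell, with a median of -0.49. Of all 22519 tested probe sets 1446 then rose and 17031 fell, with a median of -0.57. Gstm4, another mu-class gene, read 238.3, 273.1 and 229.7 in NADA and 119.1, 125.6 and 118.5 in vehicle, all NADA arrays being brighter. Its log2 fold change was 1.03 ± 0.07 (adjusted p = 1.43e-08), and it kept its call after the poly-A scaling (0.45, adjusted p = 5.1e-04). The theta gene Gstt3 rose by 0.59, the pi gene Gstp3 by 0.53 and the mu gene Gstm3, on a probe set of the s type that may bind other transcripts, by 0.31 with the values as deposited, and after the scaling they stood at 0.01, -0.05 and -0.26. Gstcd, which carries only a transferase-like C-terminal domain, fell by 1.22 on the log2 scale, with 265, 254.8 and 245.8 in NADA and 633.9, 594.3 and 560.3 in vehicle (adjusted p = 2.04e-10). Gstz1, the isomerase of tyrosine breakdown, changed by -0.40, and Hpgds, the sigma-class prostaglandin D synthase, by -0.28. Gstm7 was not called (-0.15, adjusted p = 0.167). Gstp3 and Gstp1 moved in opposite directions as deposited, though both are of the pi class. Of the MAPEG relatives of the microsomal enzymes, Alox5ap, the helper of leukotriene synthesis, rose by 0.33 as deposited (-0.24 after the scaling), and Ptges and Ltc4s were below the dim limit.

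Among genes that supply glutathione, the cystine importer and the modifier subunit of the rate-limiting enzyme were higher in NADA. Of 7 tested genes of glutathione synthesis and cysteine supply 4 rose and 1 fell, with a median of 0.20. Of all 10520 genes 35.3% rose and 37.2% fell with the values as deposited. After the poly-A scaling 3 rose and 4 fell (median -0.38), beside 1446 and 17031 of all 22519 tested probe sets (median -0.57). Slc7a11, the cystine transporter, read 184.6, 196.3 and 207.7 in NADA and 79.3, 79.3 and 82.1 in vehicle, a log2 fold change of 1.29 ± 0.06 (adjusted p = 6.54e-10). Its heavy chain Slc3a2, which also serves other amino acid transporters, rose by 1.59. Gclm, the modifier subunit of glutamate-cysteine ligase, rose by 0.91 ± 0.03, with 5365, 5153 and 5098 in NADA against 2781, 2764 and 2737 in vehicle, while the catalytic subunit Gclc changed by 0.20. After the scaling Slc3a2, Slc7a11 and Gclm stayed called, at 1.01, 0.71 and 0.34, and Gclc was at -0.38. Gss, the synthetase of the last step, was not called (-0.03, interval from -0.15 to 0.09). Ggct, which recycles gamma-glutamyl amino acids, fell by 1.41 on the log2 scale.

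The list of glutathione reduction holds the reductase, peroxidases, glutaredoxins and the glyoxalases, and its members moved both ways with the values as deposited. Of 10 tested 6 fell and 2 rose (median -0.25), where 37.2% of all 10520 genes fell and 35.3% rose. After the poly-A scaling 9 of the 10 fell and 0 rose (median -0.82). Under that scaling 17031 of all 22519 tested probe sets fell and 1446 rose (median -0.57). The genes that fell were Gsr, which regenerates glutathione, the glyoxalases Glo1 and Hagh, which detoxify methylglyoxal, and the glutaredoxins Glrx2, Glrx3 and Glrx5. Of the peroxidases, Gpx1 rose by 0.20 as deposited, and Gpx3 (0.00) and Gpx4 (0.05, adjusted p = 0.169) were not called on their brightest probe sets. The glutaredoxin Glrx5, which serves iron-sulfur cluster assembly in mitochondria, read 1774, 1792 and 1779 in NADA and 3729, 3692 and 3666 in vehicle, a log2 fold change of -1.05 ± 0.03 (adjusted p = 1.76e-12). Glutathione reductase, Gsr, read 333.4, 349.3 and 354 in NADA and 443.8, 477.8 and 484.4 in vehicle, a log2 fold change of -0.44 ± 0.05 (adjusted p = 2.66e-06), and its other probe set fell as well. The glyoxalase Glo1 changed by -0.43 on its brightest probe set and by less on the others (-0.17, -0.12 and -0.10, the last not called). The cytosolic glutaredoxin Glrx rose by 0.44 as deposited and stood at -0.14 after the poly-A scaling.

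With the values as deposited, genes of glutathione breakdown and of conjugate export moved in both directions. Of 8 tested breakdown genes 1 rose and 2 fell (median -0.01), where 35.3% of all 10520 genes rose and 37.2% fell. After the poly-A scaling 0 of the 8 rose and 7 fell (median -0.58). That scaled median is close to the -0.57 of all 22519 tested probe sets, of which 1446 then rose and 17031 fell. The called genes as deposited changed as follows: the dipeptidase Cndp2 by 0.69 (0.12 and not called after the poly-A scaling), Lap3 by -0.47 and Chac2 by -0.29. Of 3 tested exporters, Abcc1, the main pump for glutathione conjugates in many cells, changed by -0.35 ± 0.03 (1599, 1651 and 1569 in NADA against 2093, 2022 and 2041 in vehicle) and Abcc4 by -0.40. Abcc5 rose by 1.35 ± 0.05 on its brightest probe set, and by 0.77 after the scaling. Its other tested probe sets rose by less, by 0.40 to 1.11 as deposited, and the scaling puts the lowest of these below 0.

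The regulators of antioxidant and aryl hydrocarbon response elements that could be tested, 8 in number, rose with the values as deposited, with a median of 0.37. After the poly-A scaling 1 rose and 4 fell (median -0.20), beside 1446 and 17031 of all 22519 tested probe sets (median -0.57). Bach1, a repressor of antioxidant elements, had the largest change, with 1617, 1640.1 and 1499 in NADA and 551.5, 503.2 and 490.0 in vehicle, a log2 fold change of 1.62 ± 0.05 (adjusted p = 8.12e-12; 1.05 after the scaling). Nfe2l2, which encodes NRF2, rose by 0.63 ± 0.04 (1264, 1259 and 1322 in NADA against 810.2, 831.7 and 844.3 in vehicle), and Arnt by 0.64 ± 0.06. After the scaling these were 0.05 and 0.07, neither called (adjusted p = 0.71 and 0.62). Keap1, the adaptor that marks NRF2 for degradation, changed by 0.17 on its brighter probe set (-0.41 after the scaling) and was not called on the other (adjusted p = 0.171). The receptor gene Ahr, its repressor Ahrr and Bach2 were below the dim limit. Over all 45 tested genes of these glutathione lists 21 rose and 14 fell, and without the regulators 13 and 14 of 37, beside 35.3% and 37.2% of all genes.

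**Figure D4:**
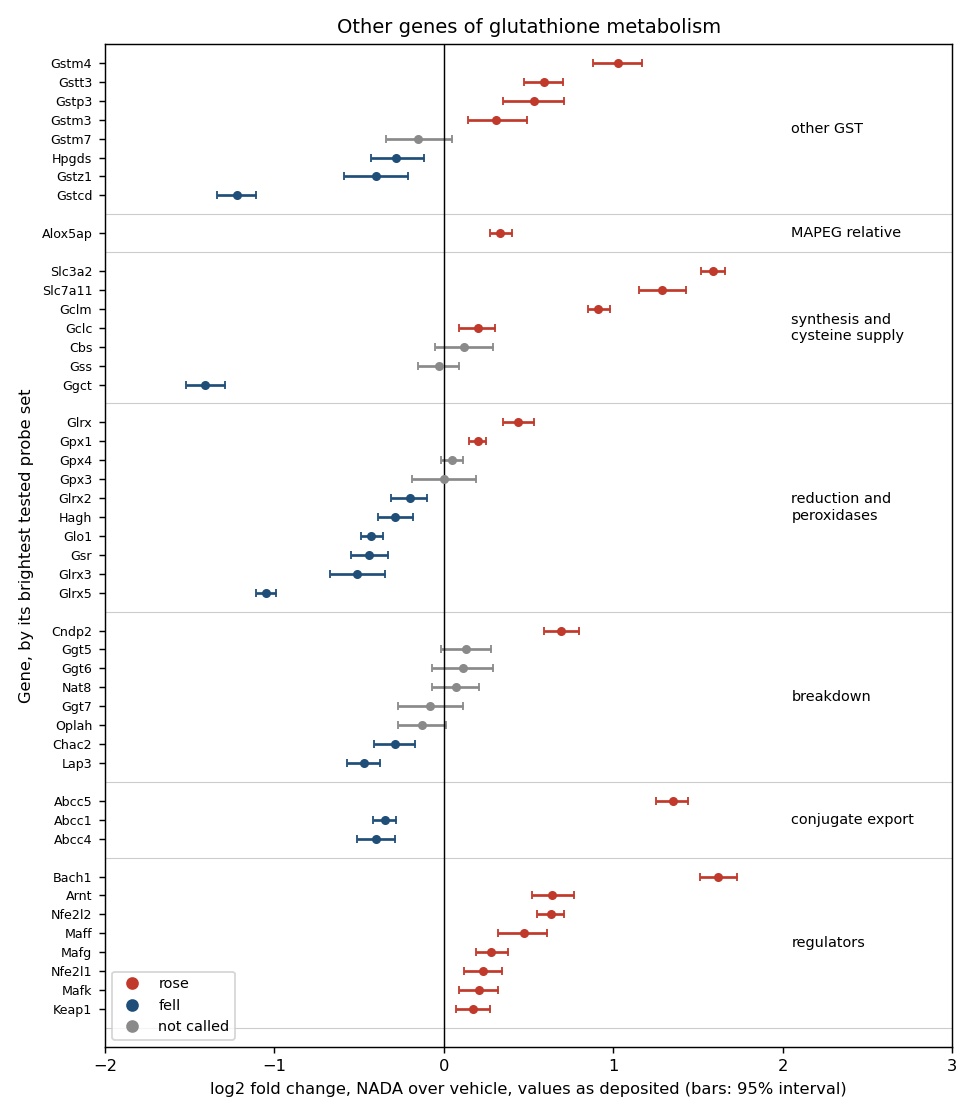
The log2 fold change, NADA over vehicle, of the 45 tested genes of the glutathione lists, grouped by role, as points with 95% intervals, values as deposited, in red for genes that rose, blue for genes that fell and grey for those not called. Slc3a2, Bach1, Abcc5, Slc7a11 and Gstm4 lie farthest right and Ggct, Gstcd and Glrx5 farthest left. Under the poly-A scaling every point would move by -0.58. The medians of the other transferases, the synthesis genes and the regulators would turn below 0, where that of all tested probe sets is -0.57.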

How the data were processed

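Total RNA of the 6 samples was labelled with biotin and hybridised, per the labels' protocols. The table holds 1 deposited linear intensity per probe set and array (2.19 to 20113), without detection calls. Per the submitters' processing notes, MAS5 and RMA were used, in roles and versions not given in the sources used here. Array medians of 38.04 to 39.23 show that the authors' values were already normalized, so log2 of the deposited intensity was used; a change shared by most transcripts is then not visible.

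The 64 control probe sets were left out of the tests. Of 45037 others, those with a mean intensity under 39.01, their median, were dropped as dim, and 22519 were fitted by limma 3.58.1 in R 4.3.3 (lmFit, eBayes with an intensity trend, group as the only term, two-sided). A called probe set has an adjusted p under 0.05, and only those "rose" or "fell". Only probe sets paired with 1 gene were named, and genes outside the 9 are given by their brightest passing probe set. Named genes were every other transferase that passed, up to 3 per list with the smallest p, and Gclc, Gclm, Gss, Gsr, Slc7a11, Abcc1, Nfe2l2 and Keap1; any other gene named was chosen after its values were seen. Members and lists were chosen with earlier results of these data known. The steps were tested on simulated data. Alternatives covered normalization, low values, the dim filter, the model, the threshold, the way probe sets are joined, and leaving out each array. Plots used matplotlib 3.10.9.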

Additional observations from a re-analysis of the deposited data

How the results depend on the processing

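Scaled to the poly-A control RNAs, 3 of the 11 transferase probe sets rose and 4 fell, 6 and 31 of the 45 other glutathione genes did so, and 1446 and 17031 of all probe sets. Under that scaling the sign turned for both Gsto1 probe sets (-0.38 and -0.28), Mgst2 (-0.09) and Mgst3 (-0.23). Against a minimum of 1.5-fold, limma's treat called 3 transferase probe sets higher and 0 lower, 6 and 3 of the other glutathione genes, and 1832 and 2404 of all probe sets; the 0 compares with 1 at the main setting and in every other alternative but the poly-A scaling, the 3 are of Gstm1, and Gstp1 differed by less than 1.5-fold. With only the brightest probe set per gene kept, 5 of 7 transferase probe sets rose, and 3775 and 3958 of all 10520 probe sets rose and fell, since fewer were tested. Gstt2 had a log2 fold change of 0.01 with array weights and of -0.03 to 0.02 as single arrays were left out. The Actb 3' to 5' difference was 0.34 with quantile normalization against 0.40. Leaving out single arrays gave 8 or 9 higher and 1 lower transferase probe sets. The replicate numbers did not pair the arrays (correlations of same-numbered arrays 0.19, -0.10 and 0.02); with the replicate block 9 transferase probe sets rose and 1 fell, and 7762 and 8194 of all.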
